A study of Mus musculus with 9 samples.

Results

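Transcripts of 8 enzymes of cholesterol biosynthesis were followed in cells sorted as PGC-like cells (PGCLCs) or as somatic cells, with and without enforced NRF1 expression. The 8 genes were taken by symbol from 56691 genes in the count tables: Hmgcs1, Idi1, Fdps, Fdft1, Sqle, Lss, Cyp51 and Dhcr7. Each symbol was found in all 9 libraries, and all 8 genes were among the 16903 genes that passed the filter on low counts. The cells came from BVSC, a mouse pluripotent stem cell (PSC) line in which Blimp1 drives mVenus (BV) and Stella drives CFP, differentiated as embryoid bodies (EBs) in serum-containing medium. The p20 vector, a modified pInducer20 lentivirus, carried mouse Nrf1 cDNA under doxycycline (DOX) control (NRF1 OE) or no insert (Ctrl). Both vectors received 1.5 μg/mL DOX from day 2 to day 5 of differentiation, and cells were then sorted by mVenus. The BV+ groups were cells with Ctrl (n = 2) and cells with NRF1 OE (n = 2). The study calls BV+ cells PGCLCs, and that name is used below for the sort alone. The BV- groups were cells with Ctrl (n = 2) and cells with NRF1 OE (n = 3), and the study calls BV- cells somatic. All cells kept their own Nrf1 gene and came from 1 reporter line, and the labels name the starting line. The library titles give the sort as BV positive or negative and name no cell type. The labels do not say that libraries of a group came from separate cultures, so p-values measure the spread between these libraries.

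Cells build cholesterol from acetyl-CoA through mevalonate, isoprenoid diphosphates, squalene and lanosterol. Most enzymes of the pathway are transcribed under SREBP2, which SCAP escorts out of the endoplasmic reticulum when sterols are low and which INSIG proteins hold back when sterols are high. Farnesyl diphosphate is a branch point that also feeds protein prenylation, dolichol and ubiquinone synthesis. NRF1 is a transcription factor best known for nuclear genes of mitochondria, and it binds GC-rich promoter sites.

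Promoter sequences are shown for Dhcr7, which was called higher in BV- cells with NRF1 OE, for Lss, which holds the same GC-rich motif, and for Hmgcs1 as the gene with a sterol response element core. They are RefSeq windows on GRCm38.p6 from 250 bases before to 50 bases after a start site, whereas the counts use GRCm39. RefSeq windows were found for 5 of the 8 genes, and no window was used for Fdps, Fdft1 and Sqle. Capitals mark the motifs searched on both strands, which are TCACNCCA (the core of the sterol response element), CCAAT (the NF-Y box, ATTGG on the other strand) and GCGC, any 2 bases, GCGC (the NRF1 site, which reads the same on both strands). No match overlapped another in these windows.
Hmgcs1 chr13:119690101-119690400 (+ strand): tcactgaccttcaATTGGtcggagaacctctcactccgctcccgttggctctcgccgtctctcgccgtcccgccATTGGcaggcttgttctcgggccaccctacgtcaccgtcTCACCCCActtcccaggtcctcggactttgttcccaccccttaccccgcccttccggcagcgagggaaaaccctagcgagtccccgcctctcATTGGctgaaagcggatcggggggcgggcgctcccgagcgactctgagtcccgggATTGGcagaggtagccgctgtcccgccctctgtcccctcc
Lss chr10:76531355-76531654 (+ strand): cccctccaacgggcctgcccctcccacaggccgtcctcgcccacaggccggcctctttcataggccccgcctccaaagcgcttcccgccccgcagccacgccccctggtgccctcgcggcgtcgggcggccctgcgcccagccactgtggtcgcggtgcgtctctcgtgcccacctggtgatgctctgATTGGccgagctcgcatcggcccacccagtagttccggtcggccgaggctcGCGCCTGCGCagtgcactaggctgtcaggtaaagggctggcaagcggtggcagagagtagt
Dhcr7 chr7:143822917-143823216 (+ strand): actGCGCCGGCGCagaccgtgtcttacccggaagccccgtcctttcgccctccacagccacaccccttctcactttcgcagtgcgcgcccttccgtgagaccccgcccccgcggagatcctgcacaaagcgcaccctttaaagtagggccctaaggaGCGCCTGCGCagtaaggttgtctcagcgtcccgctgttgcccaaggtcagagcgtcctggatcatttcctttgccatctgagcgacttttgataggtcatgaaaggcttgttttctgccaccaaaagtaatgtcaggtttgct
Dhcr7 chr7:143829964-143830263 (+ strand): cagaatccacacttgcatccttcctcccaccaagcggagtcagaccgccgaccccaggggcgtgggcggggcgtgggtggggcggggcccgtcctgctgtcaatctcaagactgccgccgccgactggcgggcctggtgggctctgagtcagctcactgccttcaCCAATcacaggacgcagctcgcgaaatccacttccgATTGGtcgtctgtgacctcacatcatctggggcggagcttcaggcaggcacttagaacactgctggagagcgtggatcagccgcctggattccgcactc

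The Hmgcs1 window held TCACCCCA with its first base at -137 from the start site and 4 CCAAT boxes, at -237, -176, -45 and 11. The Lss window held 1 CCAAT box, at -62, and GCGCCTGCGC at -11. The upstream Dhcr7 window held GCGCCGGCGC at -247 and GCGCCTGCGC at -93, and the downstream window held CCAAT boxes at -85 and -49. Among 32851 RefSeq windows of this length, TCACNCCA was found in 4.36%, CCAAT in 37.4% and the NRF1 site in 6.23%. The Idi1 and Cyp51 windows held CCAAT boxes only, and no motif was found in the middle Dhcr7 window. These matches describe letters in the windows and are not measured binding.

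Libraries held between 13702162 and 19625460 counts on genes, and the 8 enzymes together held between 0.0698% and 0.0842% of them. Nrf1 counts, to which both the vector and the cells' own gene can contribute, gave 91.1 and 90.4 CPM (counts relative to TMM-scaled library size) in BV+ Ctrl and 95.7 and 99.4 CPM in BV+ NRF1 OE. In BV- cells Nrf1 was at 99.1 and 105 CPM with Ctrl and at 119, 122 and 126 CPM with NRF1 OE. The NRF1 OE libraries lay above the Ctrl libraries of the same population, by 0.10 on the log2 scale in BV+ cells (adjusted p = 0.489) and 0.26 in BV- cells (adjusted p = 0.0718), and neither difference was called. With NRF1 OE, Nrf1 was called lower in BV+ than in BV- cells (-0.33, adjusted p = 0.0431). Germ cell markers (Prdm1, Prdm14, Tfap2c, Dppa3, Nanos3 and Kit) summed to 334 to 337 CPM in BV+ Ctrl and 331 to 348 CPM in BV+ NRF1 OE. They summed to 356 to 364 CPM in BV- Ctrl and 410 to 499 CPM in BV- NRF1 OE. The list was thus not higher in the cells sorted as BV+, although none of the 6 markers was at 0. Naive pluripotency markers were Nanog, Esrrb, Klf2, Klf4, Tfcp2l1 and Zfp42. Their sums were 1366 to 1408 CPM in BV+ Ctrl and 1099 to 1284 CPM in BV+ NRF1 OE. In BV- cells they were 1423 to 1434 CPM with Ctrl and 1417 to 1479 CPM with NRF1 OE, not below BV+ cells. Fibroblast markers (Col1a1, Col1a2, Col3a1, Dcn, Lum and Pdgfra) summed to 126 to 132 CPM in BV+ Ctrl, 444 to 694 CPM in BV+ NRF1 OE, 17.3 to 22.4 CPM in BV- Ctrl and 17.1 to 23.8 CPM in BV- NRF1 OE. Lum was at 0 in BV- Ctrl, and 3 of the 4 fibroblast markers tested were called higher and 1 lower with NRF1 OE in BV+ cells. Col1a2 made up most of the fibroblast sum in BV+ cells, at 99.8 and 102 CPM with Ctrl and 602 and 368 CPM with NRF1 OE. Pdgfra went the other way there, at 6.82 and 8.13 CPM with Ctrl and 3.71 and 2.94 CPM with NRF1 OE. Visceral endoderm and lipoprotein genes (Afp, Ttr, Apoa1, Apob, Apoe and Rbp4) summed to 614 to 650.4 CPM in BV+ Ctrl and 780.4 to 869 CPM in BV+ NRF1 OE, and to 659 to 674 CPM in BV- Ctrl and 813 to 1050.5 CPM in BV- NRF1 OE, with 1 of 6 called higher and 1 lower in BV- cells and 0 in BV+ cells. Apoe made up most of this sum, at 639 and 601 CPM in BV+ Ctrl and 862 and 774 CPM in BV+ NRF1 OE. In BV+ cells Afp, Apoa1, Apob and Rbp4 were lower in every NRF1 OE library than in every Ctrl library, and Ttr overlapped. In BV- cells Apoe was higher, Apob was lower, and Afp, Ttr, Apoa1 and Rbp4 overlapped. The part of the marker lists in the results on the enzymes was not tested. In bulk libraries, fewer cells of a type and less RNA per cell cannot be told apart.

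All 8 enzymes were expressed in every library, and they were ordered by the deposited FPKM over the 9 libraries. The gene length implied by the FPKM was 5817 bases for Dhcr7, whose longest annotated transcript has 2815. For Fdft1 these lengths were 4116 and 3698 bases. The order below thus holds for the lengths used in the FPKM, and other lengths were not tested. Hmgcs1 (34.3 ± 5.68 FPKM, SD, n = 9) and Fdft1 (32.8 ± 5.88) were the most abundant. Sqle (25.8 ± 1.87) and Cyp51 (25.2 ± 2.16) followed, and these 4 neighbours overlapped in range. Fdps (14.6 ± 3.86) and Dhcr7 (14.0 ± 3.04) formed a middle level and overlapped each other. Lss (6.08 ± 0.582) and Idi1 (3.54 ± 0.853) were lowest, with every library of Lss below every library of Dhcr7 and above every library of Idi1. Summed over the 8 enzymes, levels were 727 ± 5.79 CPM in BV+ Ctrl (SD, n = 2), 772 ± 55.2 CPM in BV+ NRF1 OE (n = 2), 730.4 ± 55.2 CPM in BV- Ctrl (n = 2) and 822 ± 39.8 CPM in BV- NRF1 OE (n = 3).

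**Figure D1:**
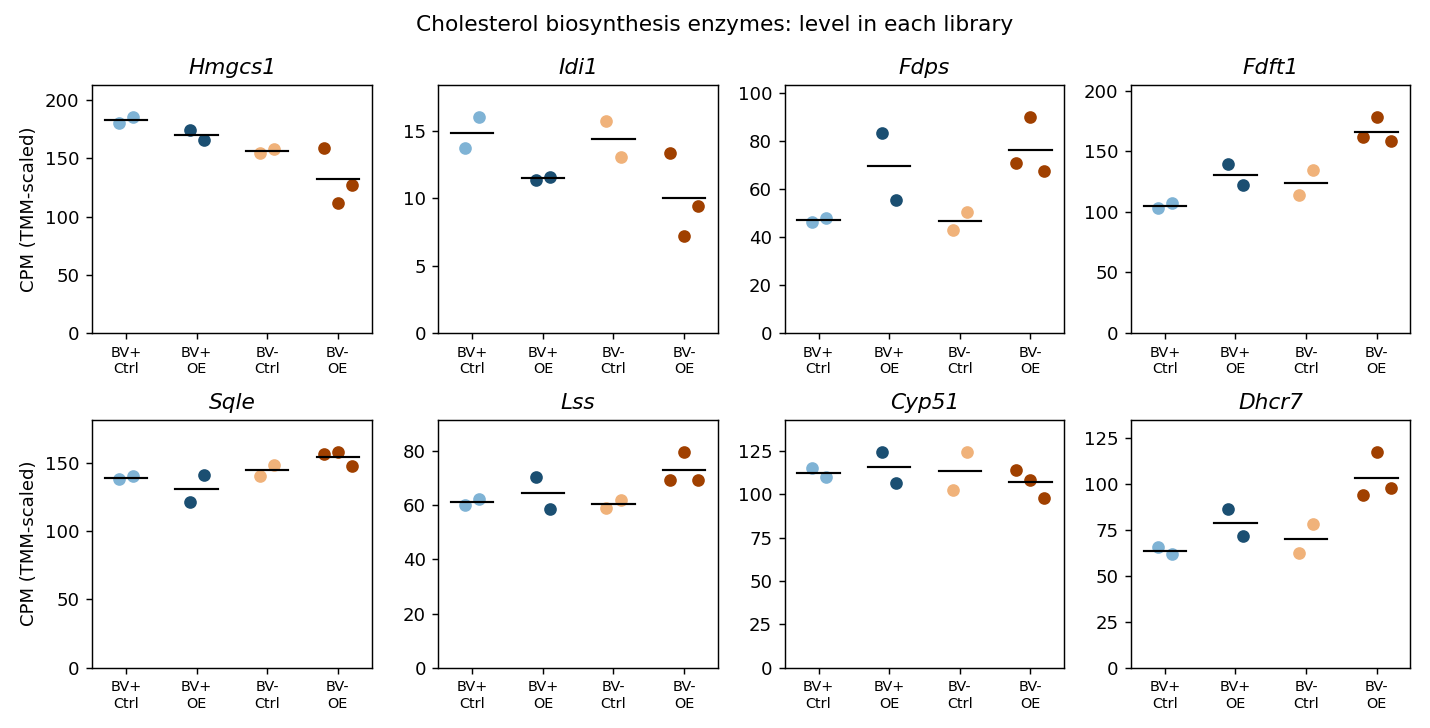
Level of each of the 8 enzymes in every library, in CPM scaled by TMM on a linear axis from 0, with 1 point per library and a line at the group mean (n = 2, and n = 3 for BV- NRF1 OE). Fdps, Fdft1 and Dhcr7 lie higher in both NRF1 OE groups than in Ctrl of the same population, whereas Hmgcs1 and Idi1 have lower means there.

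The comparison of NRF1 OE with Ctrl asked whether enforced NRF1 expression changed these transcripts in BV+ PGCLCs and in BV- cells. In BV- cells, Fdps, Fdft1 and Dhcr7 were called higher with NRF1 OE, by 1.34-fold to 1.63-fold, and 0 of the 8 were called lower. A gene was called at an adjusted p under 0.05 in edgeR's quasi-likelihood test over all genes, by which 17.2% of all genes were called in BV- cells and 10.2% were called higher. In BV+ PGCLCs 0 of the 8 enzymes were called, against 8.02% of all genes, with 2 of 8 at an unadjusted p under 0.05, beside 32.5% of all genes, and 1 of 8 called by DESeq2, beside 12.6% of all genes. By the study's threshold of an unadjusted p under 0.05 and a log2 fold change beyond 0.58, Fdps alone was called in BV- cells, beside 16% of all genes, and 0 of the 8 in BV+ cells, beside 17%. The NRF1 OE and Ctrl libraries did not overlap for 4 of 8 enzymes in BV- cells, all higher with NRF1 OE, where 57% of all genes did not overlap and 29.4% did so with NRF1 OE higher. They did not overlap for 5 of 8 in BV+ cells, 3 of them higher, where 70.1% of all genes did not overlap and 38.1% did so with NRF1 OE higher. The median log2 fold change of the 8 was 0.18 in BV- cells, beside 0.0092 over all genes, and 0.059 in BV+ cells, beside 0.036.

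Among the steps up to farnesyl diphosphate, Fdps was called in BV- cells and Hmgcs1 and Idi1 were not. Hmgcs1 (ENSMUSG00000093930), the cytosolic synthase that makes HMG-CoA, was at 155 and 158 CPM in BV- Ctrl and at 159, 112 and 127 CPM in BV- NRF1 OE. PGCLCs (BV+) had Hmgcs1 at 181 and 185 CPM with Ctrl and at 174 and 166 CPM with NRF1 OE. Its first BV- NRF1 OE library lay at the level of Ctrl, the other two lay below, and both BV+ NRF1 OE libraries lay below both BV+ Ctrl libraries. The log2 fold change was -0.24 ± 0.133 (SE) in BV- cells (adjusted p = 0.197) and -0.11 ± 0.146 in BV+ cells (adjusted p = 0.621).

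Idi1 (ENSMUSG00000058258), the isomerase that interconverts the isoprenoid building blocks, was at 15.7 and 13.0 CPM in BV- Ctrl and at 13.4, 7.22 and 9.42 CPM in BV- NRF1 OE. In BV+ PGCLCs it was at 13.7 and 16.0 CPM with Ctrl and at 11.3 and 11.6 CPM with NRF1 OE. Groups overlapped in BV- cells through the first NRF1 OE library, and did not overlap in BV+ cells. Its log2 fold change had the lowest value among the 8 in both populations, at -0.51 ± 0.217 (adjusted p = 0.105) in BV- cells and -0.38 ± 0.235 (adjusted p = 0.276) in BV+ cells, and was not called.

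Fdps (ENSMUSG00000059743) makes farnesyl diphosphate, from which sterols and the non-sterol isoprenoids branch. It was at 43.0 and 50.3 CPM in BV- Ctrl and at 71.0, 89.9 and 67.4 CPM in BV- NRF1 OE. PGCLCs had Fdps at 46.3 and 48.1 CPM with Ctrl and at 83.4 and 55.6 CPM with NRF1 OE. The NRF1 OE and Ctrl libraries did not overlap in either population, and the first BV+ NRF1 OE library was well above the second. The log2 fold change was 0.70 ± 0.180 (adjusted p = 0.0351) in BV- cells, the highest value among the 8, and 0.56 ± 0.194 (adjusted p = 0.0849) in BV+ cells. In BV+ cells the log2 fold change of Fdps was 0.82 without BV+ NRF1 OE replicate 2 and 0.24 without BV+ NRF1 OE replicate 1. Without BV- NRF1 OE replicate 2 Fdps was called in BV+ cells (0.54, adjusted p = 0.0120). The share of all genes called in that fit is not reported here.

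Among the enzymes that carry farnesyl diphosphate to lanosterol, Fdft1 was called in BV- cells and Sqle and Lss were not. Fdft1 (ENSMUSG00000021273), the squalene synthase that takes the step committed to sterols, was at 114 and 135 CPM in BV- Ctrl and at 162, 178 and 159 CPM in BV- NRF1 OE. In PGCLCs Fdft1 was at 104 and 107 CPM with Ctrl and at 139.7 and 122 CPM with NRF1 OE. The groups did not overlap in either population. Its log2 fold change was 0.42 ± 0.115 (adjusted p = 0.0382) in BV- cells and 0.31 ± 0.124 (adjusted p = 0.115) in BV+ cells.

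Sqle (ENSMUSG00000022351), the squalene epoxidase, was at 140.4 and 149 CPM in BV- Ctrl and at 156, 158 and 148 CPM in BV- NRF1 OE. In BV+ PGCLCs it was at 138 and 139.9 CPM with Ctrl and at 121 and 141 CPM with NRF1 OE. The groups overlapped in both populations, with a log2 fold change of 0.090 ± 0.102 (95% interval -0.13 to 0.31) in BV- cells and -0.086 ± 0.111 (-0.33 to 0.16) in BV+ cells. Lss (ENSMUSG00000033105), which cyclises squalene epoxide to lanosterol, was at 59.1 and 62.0 CPM in BV- Ctrl and at 69.5, 79.6 and 69.5 CPM in BV- NRF1 OE. In BV+ PGCLCs Lss was at 60.0 and 62.4 CPM with Ctrl and at 70.6 and 58.8 CPM with NRF1 OE. The BV- groups of Lss did not overlap, yet the log2 fold change of 0.27 ± 0.119 (adjusted p = 0.120) was not called, and it was 0.080 ± 0.129 (adjusted p = 0.683) in BV+ cells.

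Past lanosterol, Dhcr7 was called in BV- cells and Cyp51 was not, and the difference between the genes was not tested. Cyp51 (ENSMUSG00000001467), the lanosterol demethylase, was at 102 and 124 CPM in BV- Ctrl and at 114, 108 and 98.0 CPM in BV- NRF1 OE. Cyp51 in BV+ PGCLCs was at 115 and 110.2 CPM with Ctrl and at 124 and 107 CPM with NRF1 OE. The groups overlapped in both populations, with a log2 fold change of -0.085 ± 0.122 (95% interval -0.35 to 0.18) in BV- cells and 0.037 ± 0.133 (-0.26 to 0.33) in BV+ cells.

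Dhcr7 (ENSMUSG00000058454), the reductase that forms cholesterol in the last step of the Kandutsch-Russell route, was at 62.3 and 78.2 CPM in BV- Ctrl and at 93.9, 118 and 98.0 CPM in BV- NRF1 OE. In BV+ PGCLCs it was at 65.5 and 62.2 CPM with Ctrl and at 86.6 and 71.6 CPM with NRF1 OE. The groups did not overlap in either population, and the second BV- NRF1 OE library was the highest of the 9. The log2 fold change was 0.55 ± 0.143 (adjusted p = 0.0354) in BV- cells and 0.31 ± 0.155 (adjusted p = 0.188) in BV+ cells, where it was at 0.17 (adjusted p = 0.674) without BV+ NRF1 OE replicate 1.

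The 3 calls in BV- cells depended on single libraries. They were lost without BV- NRF1 OE replicate 3 (adjusted p between 0.0595 and 0.0689) and without any 1 of the 4 Ctrl libraries (between 0.0663 and 0.328), and in those fits between 0 and 35 of all genes were called. Without BV- NRF1 OE replicate 1, Hmgcs1 (-0.39, adjusted p = 0.0154) and Idi1 (-0.78, adjusted p = 0.0123) were called lower and 5 of the 8 were called in all, beside 34.6% of all genes in that fit. Fdps, Fdft1 and Dhcr7 kept a positive log2 fold change in both populations in every alternative tried.

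**Figure D2:**
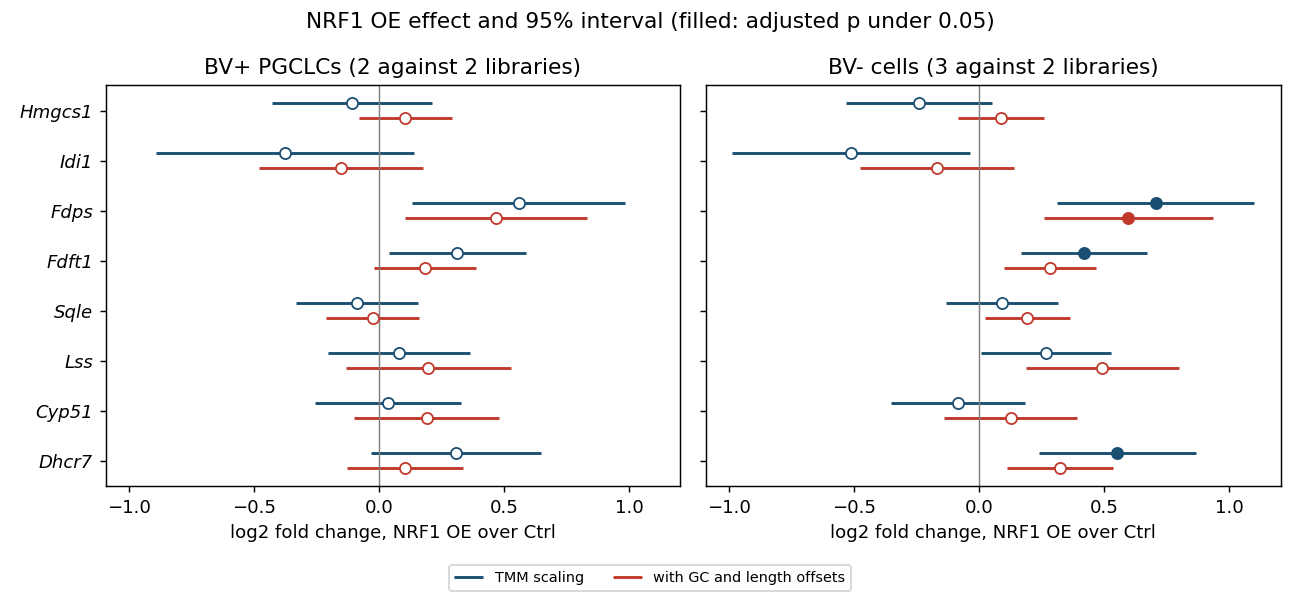
Log2 fold change of NRF1 OE over Ctrl with its 95% interval for the 8 enzymes in pathway order, in BV+ PGCLCs and BV- cells, with TMM scaling (blue) and with offsets for GC content and length (red). Filled points have an adjusted p under 0.05: Fdps, Fdft1 and Dhcr7 in BV- cells with TMM scaling and Fdps alone with the offsets.

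The effect of NRF1 OE moved with the GC content of the transcripts, both among the 8 enzymes and across all genes. GC content of the longest annotated transcript ran from 41.9% for Idi1 and 43.1% for Hmgcs1, through 46.2% for Cyp51, 48.6% for Sqle and 48.7% for Lss, to 50.6% for Fdps, 51.8% for Fdft1 and 52.8% for Dhcr7. Over these 8 genes, which share the same libraries, Spearman's rho between GC content and the log2 fold change was 0.93 in BV- cells and 0.88 in BV+ cells. Over all genes in 5 bins of equal size by GC content, the median log2 fold change rose from -0.47 in the lowest bin to 0.39 in the highest in BV- cells, and from -0.30 to 0.36 in BV+ cells. Within a library, Spearman's rho between the deviation of a gene and its GC content lay between -0.56 and -0.47 in the 4 Ctrl libraries and between 0.0067 and 0.67 in the 5 NRF1 OE libraries. BV- NRF1 OE replicate 1 had the lowest of these values in its group (0.045) and the highest Hmgcs1 and Idi1. Replicate 2 had the highest (0.67), with the highest Fdps, Fdft1, Lss and Dhcr7 and the lowest Hmgcs1 and Idi1 in the group. Replicate 3 (0.53) had the lowest Fdps and Fdft1 in the group, and its Hmgcs1, Idi1 and Dhcr7 lay between those of the other replicates. In BV+ NRF1 OE, replicate 1 had the higher rho (0.31 against 0.0067). It had the higher Fdps, Fdft1, Lss and Dhcr7 and the lower Idi1, but also the higher Hmgcs1. What part of the NRF1 OE effect this trend accounts for was not tested.

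With per-library offsets for GC content and transcript length, 1 of the 8 enzymes was called in BV- cells, beside 5.49% of all genes. That gene was Fdps, at 0.60 (adjusted p = 0.0467). Fdft1 was at 0.28 (adjusted p = 0.0664), Dhcr7 at 0.32 (adjusted p = 0.0668) and Lss at 0.49 (adjusted p = 0.0578). Hmgcs1 changed sign, to 0.085 (adjusted p = 0.535) in BV- cells and 0.11 (adjusted p = 0.422) in BV+ cells, and Cyp51 changed sign in BV- cells, to 0.13 (adjusted p = 0.558). Idi1 was at -0.17 (adjusted p = 0.485) in BV- cells and -0.15 (adjusted p = 0.514) in BV+ cells, and Dhcr7 was at 0.10 (adjusted p = 0.536) in BV+ cells. In BV+ cells 0 of the 8 were called with the offsets, beside 12.3% of all genes.

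**Figure D3:**
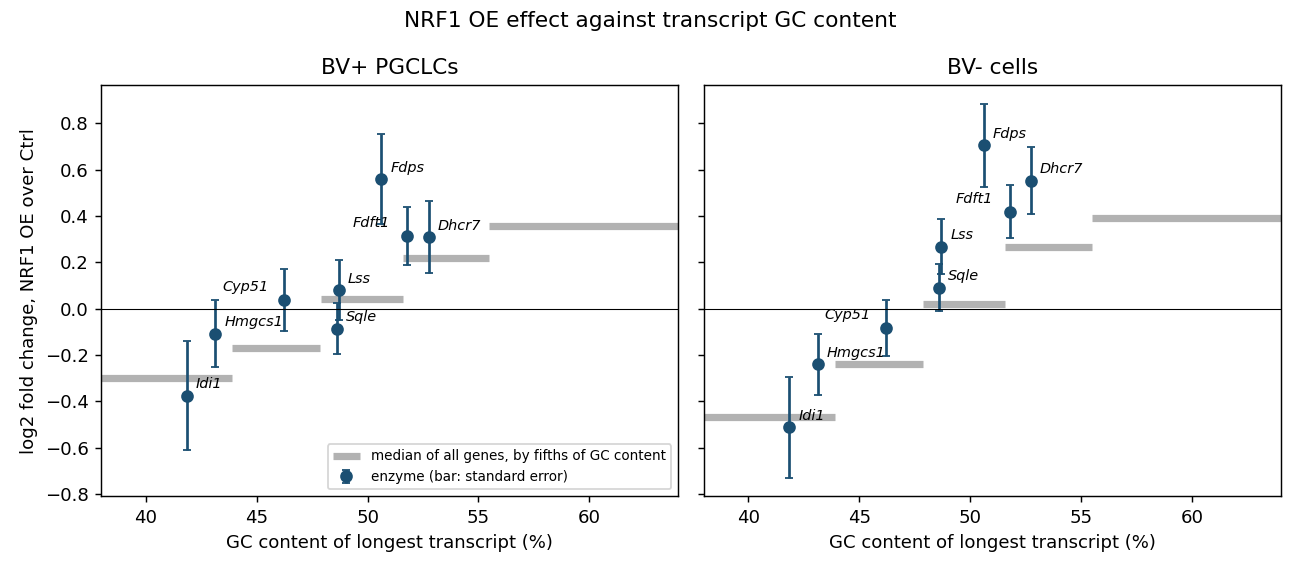
Log2 fold change of NRF1 OE over Ctrl for each enzyme (points, with standard errors) against the GC content of its longest transcript in percent, with the median of all genes in each of 5 GC bins as grey bars. Bars rise from left to right in both populations, and points broadly do, from Idi1 at 41.9% to Dhcr7 at 52.8%. Hmgcs1, Fdps, Fdft1, Lss, Cyp51 and Dhcr7 lie above the bars of their bins in both. Sqle does so in BV- cells alone, and Idi1 lies below its bar in both.

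The comparison of BV+ with BV- cells asked whether the populations sorted from differentiated PSCs differed in these enzymes. With Ctrl, 0 of the 8 enzymes were called, beside 1.12% of all genes, and DESeq2 called 0, beside 1.81%. At an unadjusted p under 0.05 there were 0 of the 8, beside 7.77% of all genes. The log2 fold changes of BV+ over BV- cells ran from -0.24 ± 0.125 for Fdft1 to 0.22 ± 0.146 for Hmgcs1. Libraries did not overlap for 3 of the 8, Hmgcs1 higher in BV+ cells and Fdft1 and Sqle lower, where 48% of all genes did not overlap. For Fdps, at 46.3 and 48.1 CPM in BV+ Ctrl and 43.0 and 50.3 CPM in BV- Ctrl, the 95% interval ran from -0.41 to 0.44.

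With NRF1 OE, 0 of the 8 enzymes were called between BV+ and BV- cells, beside 13.8% of all genes, and DESeq2 called 0, beside 13.7%. At an unadjusted p under 0.05 there were 4 of the 8, beside 28.2% of all genes. Among those 4, Hmgcs1 was at 0.36 ± 0.132 (adjusted p = 0.101), at 174 and 166 CPM in BV+ cells against 159, 112 and 127 CPM in BV- cells. The other 3 had lower values in BV+ cells: Fdft1 at -0.34 ± 0.114 (adjusted p = 0.0694), Dhcr7 at -0.38 ± 0.142 (adjusted p = 0.102) and Sqle at -0.23 ± 0.102 (adjusted p = 0.163). BV+ and BV- libraries did not overlap for these 4 genes, where 39.9% of all genes did not overlap. Hmgcs1 was called without BV- NRF1 OE replicate 1 (0.51, adjusted p = 0.00813), and the share of all genes called in that fit is not reported here. With the GC and length offsets, Sqle (-0.34, adjusted p = 0.00840), Fdft1 (-0.36, adjusted p = 0.00876) and Dhcr7 (-0.35, adjusted p = 0.0191) were called lower in BV+ cells, beside 13.3% of all genes called lower. BV+ NRF1 OE was also the group with the highest fibroblast marker sum, most of it Col1a2. Markers of several cell types moved in the same comparison: in BV+ cells, 3 of 4 fibroblast, 2 of 4 endothelial and blood and 1 of 4 mesoderm markers were called higher. Called lower there were 4 of 6 visceral endoderm and lipoprotein genes, 3 of 6 germ cell and 2 of 6 naive pluripotency markers, whereas neuroectoderm had 1 of 6 called in each direction and endoderm 0 of 6. Their part in the differences between the enzymes was not tested.

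Whether the NRF1 OE effect differed between the populations was tested as the difference of effects. No difference was called for any of the 8 enzymes or for any gene tested (0% of 16903 genes), and DESeq2 called 0 of the 8, beside 0.172% of all genes. At an unadjusted p under 0.05 there were 0 of the 8, beside 5.51% of all genes. Differences ran from -0.24 ± 0.210 for Dhcr7 to 0.14 ± 0.321 for Idi1, and for Fdps the 95% interval ran from -0.72 to 0.43. The calls in BV- cells and their lack in BV+ cells are thus not a measured difference between the populations.

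Across the 9 libraries the enzymes fell along the same lines as their fold changes. Pearson's r of log2 CPM was 0.97 between Fdft1 and Dhcr7, 0.92 between Fdps and Lss, 0.92 between Lss and Dhcr7 and 0.91 between Fdps and Dhcr7. Hmgcs1 and Idi1 varied together (0.84) and ran against Dhcr7, at -0.80 and -0.88. For Cyp51, r was 0.47 with Hmgcs1, 0.18 with Idi1 and -0.028 with Dhcr7. These points share libraries, groups and the GC trend, and are descriptions. Outside the lists used here, the genes closest to the mean standardized level of the 8 enzymes, among 9450 genes at 10 CPM or more, were Ppil3 (r = 0.98), 2410006H16Rik (0.94), Lsm8 (0.93), Ccndbp1 (0.93) and Lars2 (0.93), over 9 libraries. That mean combines enzymes that ran against each other, so a gene close to it need not follow any single enzyme. The highest r among 9450 genes over 9 libraries is also high through the selection itself.

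The other genes of the pathway were read from lists of textbook pathway genes. Of 13 other cholesterol synthesis enzymes, 4 were called higher with NRF1 OE in BV- cells, 0 were called lower and 9 were not called, with a median log2 fold change of 0.14. Over all genes 10.2% were called higher in BV- cells. Ebp, the sterol isomerase, was at 21.6 and 22.6 CPM in BV- Ctrl and at 30.6, 34.8 and 34.1 CPM in BV- NRF1 OE (0.59 ± 0.119, adjusted p = 0.0317). Ebp acts late in the pathway, before Dhcr7, and its NRF1 OE and Ctrl libraries did not overlap. Mvd, the decarboxylase just before Idi1, was at 0.65 ± 0.174 (adjusted p = 0.0368), and Mvk, the mevalonate kinase, at 0.68 ± 0.203 (adjusted p = 0.0448). In BV+ PGCLCs 1 of the 13 was called higher and 0 lower, beside 8.02% of all genes called. That gene was Pmvk, the phosphomevalonate kinase, at 16.6 and 16.3 CPM with Ctrl and 25.1 and 24.0 CPM with NRF1 OE (0.58 ± 0.136, adjusted p = 0.0340). With the GC and length offsets, 2 of the 13 were called in BV- cells, Ebp among them (0.40, adjusted p = 0.0359), beside 5.49% of all genes. In BV+ cells 0 of the 13 were called with the offsets, beside 12.3% of all genes.

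Of 7 genes for sterol sensing and SREBP processing, 3 were called higher and 1 lower in BV- cells, beside 17.2% of all genes called. Srebf2, which encodes SREBP2, was at 295 and 333 CPM in BV- Ctrl and at 405, 502 and 449 CPM in BV- NRF1 OE (0.53 ± 0.127, adjusted p = 0.0327). Scap, the escort protein, was at 0.58 ± 0.143 (adjusted p = 0.0334), and Srebf1, the factor tied more to fatty acid synthesis, at 0.52 ± 0.138 (adjusted p = 0.0360). Insig2, a retention protein, was called lower at -0.42 ± 0.132 (adjusted p = 0.0496). In BV+ PGCLCs Scap alone was called, beside 8.02% of all genes, at 41.5 and 44.2 CPM with Ctrl and 80.8 and 63.1 CPM with NRF1 OE (0.75 ± 0.154, adjusted p = 0.0235). With the offsets 0 of the 7 were called in BV- cells, beside 5.49% of all genes. Scap stayed called in BV+ cells with the offsets (0.39, adjusted p = 0.0180), beside 12.3% of all genes.

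Of 7 genes for cholesterol uptake and transport, 2 were called higher with NRF1 OE in BV- cells and 1 in BV+ cells, beside 10.2% of all genes called higher in BV- cells and 8.02% called in BV+ cells. Npc2, which hands cholesterol out of the lysosome, was called in both, at 0.53 ± 0.117 (adjusted p = 0.0317) in BV- cells and 0.56 ± 0.127 (adjusted p = 0.0314) in BV+ cells. It was also called in both with the offsets, at 0.39 (adjusted p = 0.0316) and 0.44 (adjusted p = 0.0152). With the offsets 1 of the 7 was called in BV- cells, beside 5.49% of all genes. In BV+ cells 2 were called with the offsets, beside 12.3% of all genes, and Npc1 was added there (0.52, adjusted p = 0.0363). Tmem97, a sterol-regulated membrane protein, was called in BV- cells (0.45 ± 0.129, adjusted p = 0.0413). Between BV+ and BV- cells with NRF1 OE, Npc1, the membrane partner of Npc2, was called higher in BV+ cells (0.44 ± 0.107, adjusted p = 0.0202) and Ebp lower (-0.47 ± 0.118, adjusted p = 0.0213), and these were the only list genes called in that comparison with TMM scaling. With the offsets Npc1 was at 0.18 there (adjusted p = 0.355).

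The remaining lists covered efflux, the non-sterol branch and fatty acid synthesis, and their counts stand beside 17.2% of all genes called in BV- cells. Of 4 LXR and efflux genes tested, of 5 listed, Abcg1 was called higher (0.44 ± 0.137, adjusted p = 0.0470) and Abca1 lower (-0.78 ± 0.233, adjusted p = 0.0448) in BV- cells, both being sterol exporters. Of 8 genes of the non-sterol branch, 1 was called higher and 3 lower in BV- cells. Fntb, the farnesyltransferase beta subunit, was at 0.43 ± 0.116 (adjusted p = 0.0375), whereas Pggt1b, a subunit of the enzyme that adds geranylgeranyl groups to proteins, was at -0.80 ± 0.191 (adjusted p = 0.0325). Nus1, a subunit of the dolichol-forming transferase, was at -0.45 ± 0.134 (adjusted p = 0.0448), and Ggps1, which makes geranylgeranyl diphosphate, was at -0.65 ± 0.206 (adjusted p = 0.0498). Of 9 fatty acid synthesis genes, 3 were called higher in BV- cells: Fasn, the fatty acid synthase (0.62 ± 0.131), Fads2, a fatty acid desaturase (0.56 ± 0.125), and Scd1, the stearoyl-CoA desaturase (0.45 ± 0.130), at adjusted p = 0.0317, 0.0317 and 0.0421. With TMM scaling, none of these 3 lists had a call in BV+ PGCLCs. With the offsets, the 3 fatty acid synthesis genes stayed called in BV- cells (0.52, 0.27 and 0.67 for Fasn, Fads2 and Scd1). Scd1 was also called in BV+ cells (0.53, adjusted p = 0.0438), and the efflux and non-sterol lists had 0 calls in either population. The fit with offsets called 5.49% of all genes in BV- cells and 12.3% in BV+ cells.

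**Figure D4:**
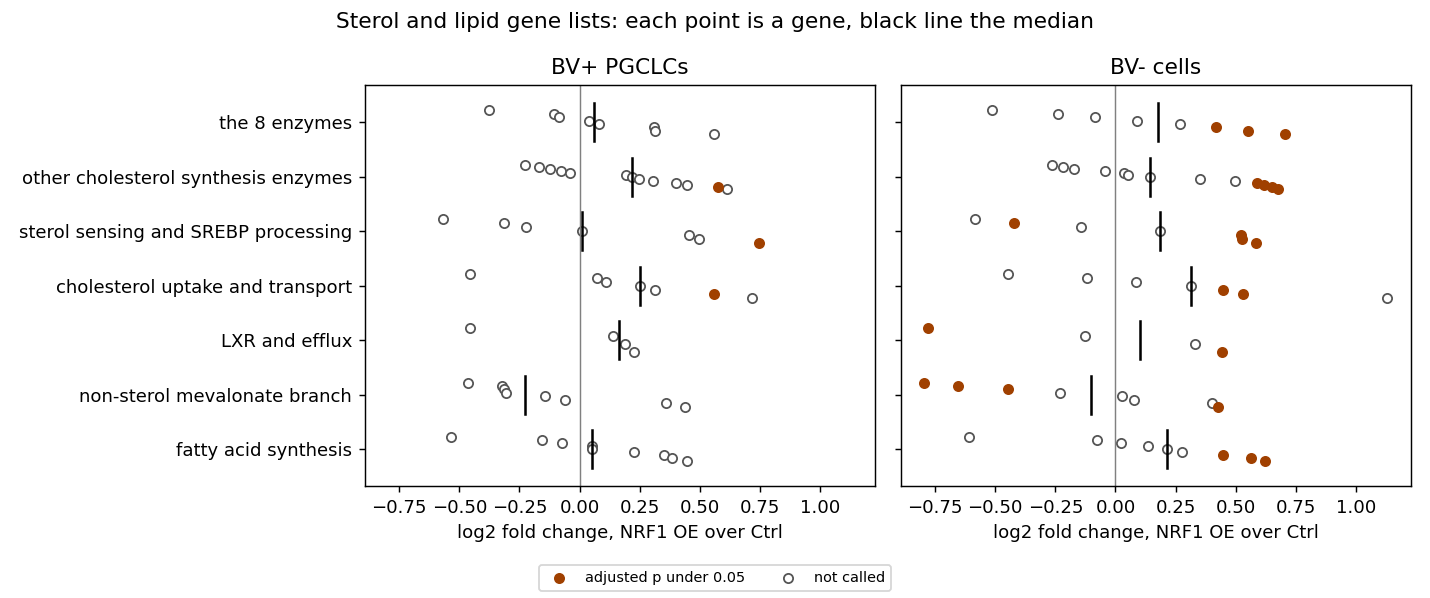
Log2 fold change of NRF1 OE over Ctrl for every tested gene of the 7 sterol and lipid lists in BV+ PGCLCs and BV- cells, with a black line at each list's median and filled points at an adjusted p under 0.05. In BV- cells 3 of the 8 enzymes and 4 of the 13 other synthesis enzymes are filled, all to the right of 0, whereas in BV+ PGCLCs the 3 filled points are Pmvk, Scap and Npc2.

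Genes that overlap another are less certain, and whether reads were counted by strand is not stated. In the GRCm38 annotation, exons of Fdps overlapped Gm43738 on the same strand by 1124 bases, which counting by strand cannot separate. Exons of Fdft1 overlapped Ctsb on the opposite strand by 774 bases. Hmgcs1, Idi1, Lss and Cyp51 shared between 166 and 557 exonic bases with a gene on the opposite strand, and Sqle and Dhcr7 shared none.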

How the data were processed

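RNA-seq libraries were grouped by their titles. The authors trimmed reads with Cutadapt, aligned them with HISAT2 2.0.1 (GRCm39) and ran HTSeq 0.6.1 to count reads per gene, and they deposited raw counts, which are not normalized, and FPKM calculated from the same counts. Whether counting used strand is not given in the sources used here. Total counts ranged from 13702162 to 19625460, and every line of the tables names a gene. FPKM served only to order levels between genes. The 8 genes and all lists were chosen with earlier results of these data known.

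Counts were tested in R 4.3.3 with edgeR 4.0.16 (filterByExpr by group, TMM factors, quasi-likelihood F test, two-sided) in 1 fit of 9 libraries and 4 groups. P-values were adjusted by Benjamini-Hochberg over 16903 genes, and a gene was called at an adjusted p under 0.05. CPM are counts relative to TMM-scaled library size, with a prior count of 2 on the log2 scale. Standard errors and 95% intervals came from the same fit.

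All 8 enzymes were named. Genes of other lists were named where called, at most the 3 smallest adjusted p per list and comparison, plus genes at a step next to a member. Mvk, Insig2 and Ggps1 were named after their values were seen, and 1 called gene is counted but not reported here. GC content and length came from GENCODE M21 transcripts (GRCm38), matched by identifier for 98.6% of genes tested. Alternatives were DESeq2 1.42.0, other scalings and filters, fits of the compared groups only, the study's threshold (unadjusted p under 0.05 and log2 fold change beyond 0.58), the replicate number as a block, GC and length offsets, and each library left out. Procedures were tested on simulated data. Replicates differed by more than sampling noise (chi-square per degree of freedom 2.80 to 30.9). Figures used Python 3.11.15 and matplotlib 3.10.9.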

Additional observations from a re-analysis of the deposited data

How the results depend on the processing

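Replicate numbers are shared between groups, but same-numbered libraries did not deviate together (correlations of deviations from -0.30 to 0.24). With the replicate number as a block, 0 of the 8 enzymes were called in BV- cells for NRF1 OE, and 0 of all genes were. With the block and the GC and length offsets, 0 were called there and 2 for BV+ against BV- cells with NRF1 OE. With the offsets alone these counts were 1 and 3. Fitting only the compared groups gave 1 call for NRF1 OE in BV+ cells, 0 in BV- cells, and 1 for BV+ against BV- cells with Ctrl (Hmgcs1, 0.23, adjusted p = 0.0463). The study's threshold called 1 in BV- cells. Both DESeq2 fits and the fit without a filter called 1 in BV+ cells, Fdps. DESeq2 on the same genes and libraries called 12.6% of all genes there. Without a filter 4 were called in BV- cells, beside 13.3% of all genes, with Idi1 added (-0.52, adjusted p = 0.0470). Each library left out in turn gave 0 to 1 calls for NRF1 OE in BV+ cells, 0 to 5 in BV- cells and 0 to 1 for BV+ against BV- cells with NRF1 OE. The count of all genes called for NRF1 OE ranged from 0 to 4957 in BV+ cells over the alternatives and from 0 to 5847 in BV- cells, against 1355 and 2910. The causes were not tested. Where a call here has no share of all genes beside it, it is not a result about the enzymes.

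Signs turned as follows. For NRF1 OE in BV+ cells, Hmgcs1 turned to 0.11 with the offsets and 0.10 with offsets and block, and Cyp51 to -0.0023 with library size alone and -0.0061 in the fit of compared groups. For NRF1 OE in BV- cells, offsets turned Hmgcs1 to 0.085 and Cyp51 to 0.13, and offsets with block to 0.12 and 0.20. For BV+ against BV- cells with Ctrl, Lss turned to -0.00019 with DESeq2, -0.00020 with its size factors, -0.0043 with a mean of 10 counts and -0.10 with the offsets, with or without the block. There, Cyp51 turned to 0.00023 with upper-quartile factors, 0.017 with library size alone and 0.0081 without a filter, and Fdps to -0.0038 with a mean of 10 counts. With offsets and block, Cyp51 turned to -0.071 for BV+ against BV- cells with NRF1 OE. The difference of effects then turned for Hmgcs1 (-0.015), Idi1 (-0.025) and Cyp51 (-0.0070).

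With each library left out, NRF1 OE effects in BV+ cells ranged from -0.20 to 0.023 for Sqle, -0.055 to 0.21 for Lss and -0.075 to 0.15 for Cyp51, and in BV- cells from -0.22 to 0.051 for Cyp51. BV+ against BV- values with Ctrl ranged from -0.10 to 0.19 for Idi1, -0.093 to 0.11 for Fdps, -0.019 to 0.046 for Lss, -0.14 to 0.11 for Cyp51 and -0.29 to 0.0091 for Dhcr7. With NRF1 OE they ranged from -0.45 to 0.13 for Fdps and -0.0015 to 0.22 for Cyp51. Differences of effects ranged from -0.037 to 0.40 for Idi1, -0.47 to 0.12 for Fdps and -0.21 to 0.011 for Fdft1. Where a group kept 1 library, that library was assumed to vary like the others. Idi1, at 98 to 305 counts per library, was the least deeply counted of the 8.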
